A study of Mus musculus with 6 samples.

Results

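The NADPH oxidase subunit genes described here are 6 of the 22322 genes in the expression table of epididymal white adipose tissue (eWAT), taken by symbol: Cybb, Cyba, Ncf1, Ncf4, Rac2 and Nox4. The first 5 encode parts of the oxidase of phagocytes and Nox4 encodes a separate oxidase of non-phagocytic cells. The tissue was profiled by bulk RNA sequencing after 17 weeks of high fat feeding in both groups, with 3 wild type libraries (WT1, WT2 and WT3) and 3 from the CD44-KO genotype (KO1, KO2 and KO3, CD44 KO below), made to lack the hyaluronan receptor CD44. The sources used here do not give strain, age or the design of the knockout allele, and no lean or chow-fed group is compared. The labels do not tie each library to its own animal in words, so p-values measure the spread between these libraries. In bulk tissue, fewer cells of a type and less RNA per cell cannot be told apart.

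The phagocyte oxidase moves electrons from NADPH across a membrane to oxygen and makes superoxide. Its membrane core, cytochrome b558, is a dimer of gp91phox (Cybb, also called Nox2) and p22phox (Cyba), and it stays idle until cytosolic subunits, among them p47phox (Ncf1), p40phox (Ncf4) and the GTPase Rac2, arrive at the membrane. Macrophages and neutrophils carry the whole set. Nox4 also pairs with p22phox but needs none of the cytosolic subunits. It releases mostly hydrogen peroxide, and it is found in stromal, vascular and fat cells.

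All 6 members lay lower on average in fat without CD44, but in 2 different patterns across the libraries. The 5 phagocyte subunits were low in KO2 and KO3, and none passed the test. In KO1 they stood near the level of WT1, the lowest wild type library for each, at 38.9% to 56.4% of the wild type mean. Nox4 was low in all 3 CD44 KO libraries, lowest in KO1, and fell 8.02-fold (95% interval 2.88 to 22.3). It was the 1 member of 6 called by edgeR's quasi-likelihood test at a Benjamini-Hochberg adjusted p under 0.05, where 0.882% of the 13829 genes tested were called lower and 2.62% were called in either direction. CPM below are TMM-scaled for library size, log2 fold changes are CD44 KO against wild type with their standard error (SE), and "adjusted p" is the edgeR value unless another tool is named.

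**Figure D1:**
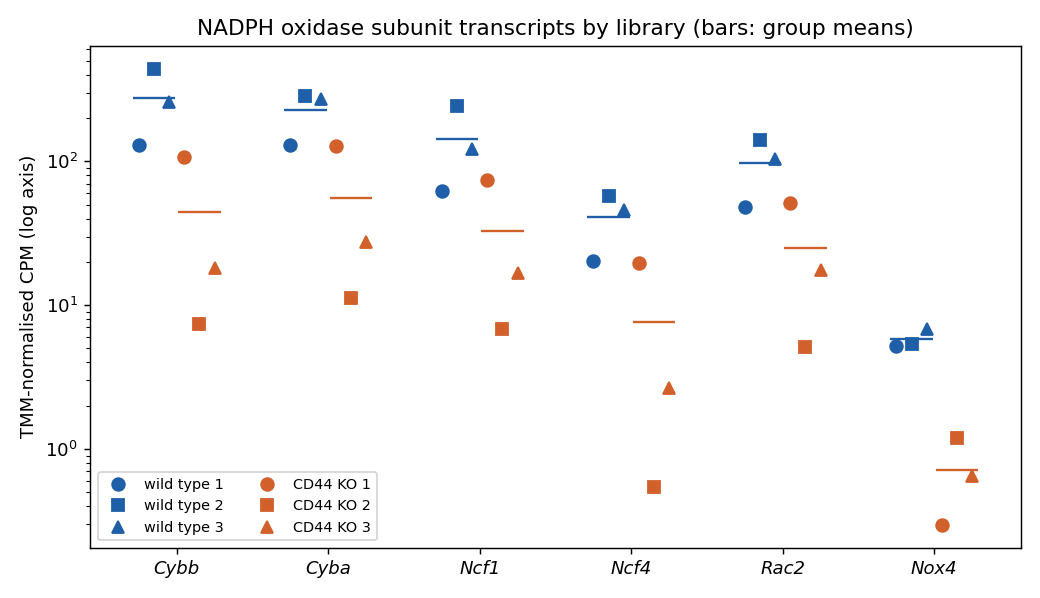
TMM-normalised CPM (log axis) of the 6 members in each library, wild type in blue and CD44 KO in orange, with horizontal bars at the group means. KO1 (orange circles) lies beside WT1 for Cybb, Cyba, Ncf1, Ncf4 and Rac2 and is the lowest point for Nox4 (0.297 CPM).

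Total expected counts ran from 15543317 to 18765009 per library. Cd44 checked the labels, with 3091, 10580 and 6000 expected counts in WT1 to WT3 and 28, 50 and 34 in KO1 to KO3. KO1 correlated more closely across genes with the wild type libraries (mean Pearson r of log2 CPM 0.932) than with the other CD44 KO libraries (0.908). KO2 held transcripts of the epididymis, with 11294 CPM summed over 10 marker genes. The sum was 13.6 CPM in KO1, 6.67 in KO3 and 1.02 to 1.77 in wild type. In KO2 Crisp1, Adam7 and Rnase9 gave 9623, 1207 and 386 CPM, no other marker exceeded 77.9 CPM, and several were near 0. Adam7 also stood at 10.8 CPM in KO1 and 5.05 in KO3, against 0.108 to 0.157 in wild type. Results are therefore also given without KO1 and without KO2.

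The start regions of the members differ in base composition, and the 250 bases before the RefSeq start are shown for the catalytic subunits of each oxidase, Cybb and Nox4, and for Ncf1, which shares a repeat with Cybb. RefSeq windows (GRCm38.p6) were matched for 4 of the 6 members. Each is written 5′ to 3′ on the strand of its gene, with matches to searched motifs in capitals.
Cybb (chrX:9469325-9469574, minus strand): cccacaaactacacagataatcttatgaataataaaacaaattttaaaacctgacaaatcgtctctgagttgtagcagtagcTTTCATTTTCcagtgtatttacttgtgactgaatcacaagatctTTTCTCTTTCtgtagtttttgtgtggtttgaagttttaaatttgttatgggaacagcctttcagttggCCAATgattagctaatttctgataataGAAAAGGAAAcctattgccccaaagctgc
Ncf1 (chr5:134229626-134229875, minus strand): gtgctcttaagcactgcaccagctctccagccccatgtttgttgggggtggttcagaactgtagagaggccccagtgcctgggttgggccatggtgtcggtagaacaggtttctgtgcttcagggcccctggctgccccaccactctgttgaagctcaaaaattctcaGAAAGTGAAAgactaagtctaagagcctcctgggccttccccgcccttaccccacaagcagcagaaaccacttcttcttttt
Nox4 (chr7:87246399-87246648, plus strand): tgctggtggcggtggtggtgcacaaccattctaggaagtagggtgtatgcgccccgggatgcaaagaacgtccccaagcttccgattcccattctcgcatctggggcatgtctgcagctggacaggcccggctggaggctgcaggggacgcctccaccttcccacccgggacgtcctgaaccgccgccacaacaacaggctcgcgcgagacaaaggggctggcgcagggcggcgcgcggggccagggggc
In GENCODE M21 none of these windows touches an exon, those of Cybb and Nox4 lie within longer models of the same gene, and that of Cyba lies within the span of Gm20388. Searched on both strands were GAGGAA, the CCAAT box, and an IRF-type repeat of GAAA, any 2 bases and GAAA. The repeat is of the kind bound by interferon regulatory factors. The first string covers only some sites of the myeloid factor PU.1, and shorter forms of its site were not searched. A window without this string can therefore still hold another sequence of the PU.1 type. The Cybb window held 3 matches to the repeat (first bases 168, 124 and 29 before the start) and a CCAAT box (first base 56 before the start), and no matches overlapped. The Ncf1 window held 1 repeat (first base 82 before the start), while those of Cyba and Nox4 held none. Among 32536 distinct RefSeq windows of this length 2.98% held the repeat, 33.8% a CCAAT box and 23.4% GAGGAA, which was in none of the 4 windows. GC content was 34.0% for Cybb, 54.4% for Ncf1, 60.0% for Cyba and 67.2% for Nox4, against a median of 52.4% over all windows. A match describes letters only and is not a binding site.

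Cybb (ENSMUSG00000015340, chromosome X, 9435252 to 9487771, minus strand, GRCm38) encodes the electron-carrying subunit gp91phox. It had 2213, 8167 and 4926 expected counts in WT1 to WT3 and 1810, 123 and 281 in KO1 to KO3, or 130.5, 440.0 and 257 against 107, 7.39 and 18.2 CPM. The groups did not overlap, but KO1 was at 82.3% of WT1, the lowest wild type library. Against the wild type mean KO1 was at 38.9%, KO2 at 2.68% and KO3 at 6.59%. The log2 fold change was -2.64 (SE 1.04, adjusted p 0.147), a 6.22-fold difference with a 95% interval of the wild type over CD44 KO ratio from 0.848 to 45.6. Without KO1 it was -4.43 and was called (adjusted p 0.0243), in a fit that called 1363 of 14119 genes lower (9.65%), against 122 with all libraries.

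Cyba (ENSMUSG00000006519, chromosome 8, 122424776 to 122432930, minus strand) encodes p22phox, the partner that gp91phox and Nox4 share. Its expected counts were 2201, 5250 and 5158 in WT1 to WT3 and 2160, 187 and 426 in KO1 to KO3. At 128 CPM KO1 was just below the 129.8 CPM of WT1, the lowest wild type library, so the groups did not overlap by this small margin. The log2 fold change was -2.03 (SE 0.89, adjusted p 0.176). Without KO1 it was -3.55 (adjusted p 0.0241).

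The cytosolic subunits were also lowest in KO2, then KO3. Ncf1 (ENSMUSG00000015950, chromosome 5, 134220053 to 134229625, minus strand), the p47phox organiser whose phosphorylation starts assembly, had 1061, 4498 and 2326 expected counts in WT1 to WT3 and 1253, 113 and 260 in KO1 to KO3. Its groups overlapped, with 74.4 CPM in KO1 above the 62.6 CPM of WT1, and the log2 fold change was -2.12 (SE 0.94, adjusted p 0.182). An exon of Gtf2ird2 on the other strand shares up to 193 bases with Ncf1, and the strandedness of the counting is not given, so reads there cannot be told apart.

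Ncf4 (ENSMUSG00000071715, chromosome 15, 78244801 to 78262580, plus strand), the p40phox subunit that binds a phagosome membrane lipid, had 342, 1058 and 881 expected counts in WT1 to WT3 and 332, 9 and 41 in KO1 to KO3. It had the widest spread among the CD44 KO libraries, 36.5-fold between the highest and the lowest CPM, against 10.1-fold to 14.5-fold for the other 4 phagocyte subunits. Its log2 fold change was -2.42 (SE 1.15, adjusted p 0.201). Rac2 (ENSMUSG00000033220, chromosome 15, 78559167 to 78572783, minus strand), the GTPase of blood cells that switches the oxidase on, had 816, 2611 and 2004 expected counts in WT1 to WT3 and 871, 85 and 272 in KO1 to KO3. Its groups overlapped (48.1 CPM in WT1, 51.7 in KO1), and the log2 fold change was -1.98 (SE 0.83, adjusted p 0.165). Without KO1 the log2 fold changes of Ncf1, Ncf4 and Rac2 were -3.59, -4.69 and -3.11, and all 3 were called, where 9.65% of genes were. Without KO2, the library with the most epididymis transcripts, 0 of the 5 were called, where 0.257% of genes were called lower, and Cybb stood at -2.13.

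Of the 5 phagocyte subunits 0 were called by edgeR, 1 (Cybb) had an unadjusted edgeR p under 0.05, where 14.7% of all genes did in the lower direction, and 4 (all but Ncf4) were called lower by DESeq2, where 9.38% of genes were. Their median log2 fold change was -2.12, against 0.03 over all genes tested. Of the 5 subunits, 3 (Cybb, Cyba and Ncf4) had groups that did not overlap, as had 18.1% of all genes in this direction and 19.7% in the other. The margin was small for Ncf4 as for Cyba, with 20.2 CPM in WT1 and 19.7 in KO1. In the authors' deposited table Cybb had a log2 fold change of -2.63 with an FDR of 0.0206, and the FDR of Rac2, Cyba, Ncf1 and Ncf4 was 0.0501, 0.0534, 0.0553 and 0.0778.

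Nox4 (ENSMUSG00000030562, chromosome 7, 87246096 to 87398710, plus strand) encodes the constitutively active oxidase of non-phagocytic cells. It was a low transcript, with 88, 99 and 131 expected counts in WT1 to WT3 and 5, 20 and 10 in KO1 to KO3. These were 5.19, 5.33 and 6.84 CPM against 0.297, 1.20 and 0.647 CPM, so the groups were well apart and the wild type libraries differed by only 1.32-fold. The mean fell from 5.79 ± 0.91 to 0.715 ± 0.456 CPM (SD, n = 3 each), a log2 fold change of -3.00 (SE 0.53) with an adjusted p of 0.0461 by edgeR's quasi-likelihood test. The authors' deposited table gives -2.94 with an FDR of 5.67e-06, and DESeq2 gave an adjusted p of 4.78e-06.

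The Nox4 call was near the threshold. It was lost without WT1 (log2 fold change -3.06, adjusted p 0.067), WT2 (-3.06, 0.16), WT3 (-2.87, 0.247) and KO3 (-2.95, 0.135), fits in which 62, 7, 0 and 2 of all genes were called lower. It held without KO1 (-2.64, adjusted p 0.0243) and without KO2 (-3.61, adjusted p 0.0497), the library with the most epididymis transcripts, fits in which 1363 and 36 of all genes were called lower. Leaving out any 1 library moved the Nox4 log2 fold change between -3.61 and -2.64, and that of Cybb between -4.43 and -2.11.

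**Figure D2:**
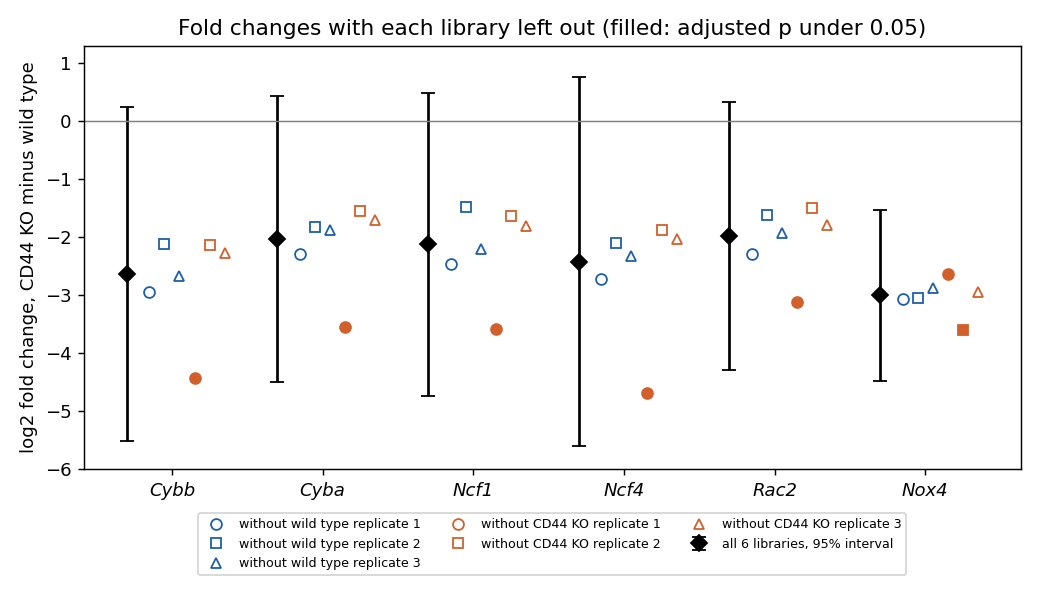
log2 fold changes (CD44 KO minus wild type) of the 6 members from all libraries (black, with the 95% interval) and with each library left out in turn (coloured symbols, filled where the edgeR adjusted p is under 0.05). The 5 phagocyte subunits drop to between -4.69 and -3.11 and are all called without KO1, while Nox4 stays between -3.61 and -2.64.

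Levels of different members are compared as the deposited FPKM, which are per transcript length. In wild type the order was Cyba (311 ± 115 FPKM, SD, n = 3), Cybb (58.6 ± 32.6), Ncf1 (52.9 ± 33.6), Rac2 (44.4 ± 25.4), Ncf4 (29.5 ± 13.6) and Nox4 (1.56 ± 0.26). The 4 from Cybb to Ncf4 did not differ from their neighbours beyond their spread, whereas Cyba stood above them and Nox4 below. In CD44 KO the means were 75.4 for Cyba, 12.0 for Ncf1, 9.47 for Cybb, 8.18 for Rac2, 5.46 for Ncf4 and 0.203 for Nox4. Among the first 5 the SD over the CD44 KO libraries was as large as the mean or nearly so (7.63 to 86.9 FPKM). Cyba was the highest member in each of the 6 libraries. Nox4 was the lowest in all but KO2, where Ncf4 (0.35 FPKM) stood just below Nox4 (0.36 FPKM).

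The proportions among the subunits were not constant. The FPKM ratio of Cyba to Cybb was 6.37, 4.12 and 6.72 in WT1 to WT3 and 7.55, 9.80 and 9.73 in KO1 to KO3. That of Ncf1 to Cybb was 0.838, 0.964 and 0.828 against 1.19, 1.61 and 1.62. Both ratios were higher in each CD44 KO library than in any wild type library, KO1 included. The ratio of Ncf4 to Cybb overlapped between the groups (0.438 to 0.605 against 0.241 to 0.615). That of Rac2 to Cybb overlapped through WT3 alone, with 0.611, 0.527 and 1.22 in WT1 to WT3 and 0.743, 1.08 and 1.52 in KO1 to KO3. The Rac2 FPKM of WT3 rests on a shorter implied transcript length than in the other libraries, as described below. All of these ratios share Cybb as the denominator, so they are not separate observations, and they were described without a test. How often other pairs of genes separate the groups in this way was not computed. Nox4 amounted to 1.53% to 5.05% of Cybb in wild type and to 0.346%, 24.8% and 4.47% in KO1 to KO3, so it came closest to Cybb in the library with the least Cybb.

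Rac2 was ordered differently by counts and by FPKM. By CPM WT2 was the highest library (141, against 105 in WT3), but by FPKM WT3 was the highest (67.2, against 48.9). Dividing counts by FPKM and depth gives the transcript length behind each FPKM. For Rac2 this was 1589 bases in WT3 and 2869 to 3043 in the other 5 libraries, a 1.91-fold range. GENCODE M21 lists coding Rac2 transcripts of 3038 and 254 bases. For Cybb, Cyba, Ncf1 and Ncf4 the implied length varied by no more than 1.05-fold, and for Nox4 by 1.21-fold, with the shortest, 3123 bases, resting on 20 counts in KO2. Of 6792 genes with at least 100 counts and 5 FPKM in every library, 0.221% had a range as wide as that of Rac2. The authors' deposited log2 fold change of Rac2, which comes from FPKM, was -2.44, against -1.98 from the counts.

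**Figure D3:**
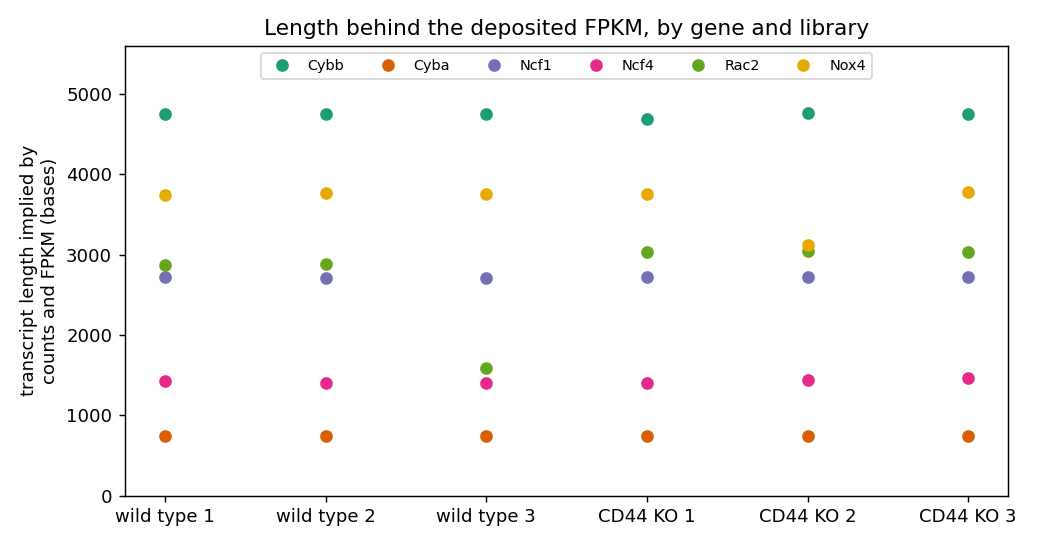
Transcript length in bases that the deposited counts and FPKM together imply, for each member (colour) in each of the 6 libraries. Rac2 stands at 1589 bases in WT3 and at 2869 to 3043 in the others, and the points of Cybb, Cyba, Ncf1 and Ncf4 stay level.

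Most markers of macrophages moved with the phagocyte subunits across the libraries. Of 15 pan-macrophage markers 0 were called by edgeR and 15 had negative log2 fold changes (median -2.10), as had 47.8% of all genes. At an unadjusted edgeR p under 0.05, 3 were lower, where 14.7% of all genes were. Their summed level was 5368 to 11485 CPM in wild type and 333 to 5443 CPM in CD44 KO, with the latter maximum in KO1. Lyz2 (lysozyme), Mpeg1 (perforin-2) and Cd68 were the most abundant, and in KO2 they stood at 98.1, 17.9 and 9.73 CPM. Mertk was level, at 33.4, 59.9 and 47.8 CPM in WT1 to WT3 and 45.9, 46.5 and 47.2 in KO1 to KO3. Its log2 fold change was -0.02, and it is part of the 15-marker mean used below. Neutrophils, the other cells rich in this oxidase, gave little signal: the 11 neutrophil markers summed to 17.6 to 41.2 CPM in wild type and 4.68 to 35.0 in CD44 KO, and Ly6g was at 0 in all wild type libraries. The 7 B cell markers, of cells that also carry Cybb, summed to at most 10.1 CPM in any library. The part of these cells in the lower subunit levels was not tested.

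Measured against the macrophage markers of the same library, the groups overlapped for Cyba, Ncf1 and Rac2, for Ncf4 through KO1 alone, and not for Cybb. The difference between log2 CPM of a member and the mean log2 CPM of the 15 markers had a knockout mean minus wild type mean of -0.08 for Cyba, -0.01 for Ncf1, 0.16 for Rac2, -0.76 for Cybb, -0.95 for Ncf4 and -0.41 for Nox4. Cyba overlapped between the groups (-0.46 to -0.26 in wild type, -0.61 to -0.21 in CD44 KO). Ncf1 (-1.52 to -0.50 against -1.32 to -0.93) and Rac2 (-1.89 to -1.28 against -1.73 to -1.25) overlapped as well. Cybb stood at -0.46, 0.36 and -0.32 in WT1 to WT3 and at -0.68, -0.81 and -1.21 in KO1 to KO3. The gap between WT1 and KO1 was narrow, and a mean without the level marker Mertk was not computed. Ncf4 was at -3.14 to -2.58 in wild type, and at -3.12, -4.33 and -3.93 in KO1 to KO3, so its overlap rested on KO1 alone. Nox4 ranged from -8.70 in KO1 to -3.32 in KO2.

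**Figure D4:**
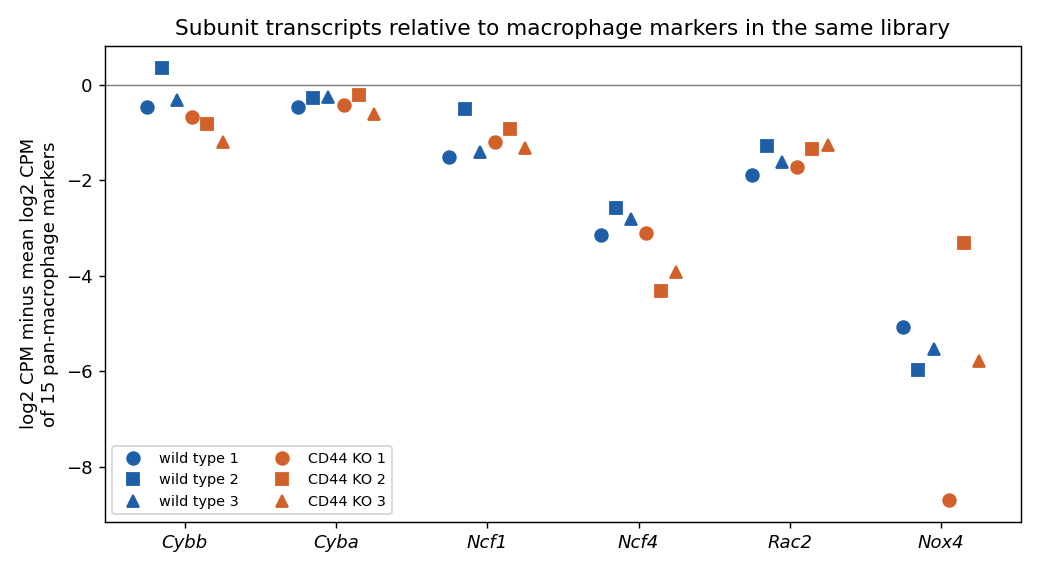
log2 CPM of each member minus the mean log2 CPM of 15 pan-macrophage markers in the same library, wild type in blue and CD44 KO in orange. Cyba, Ncf1 and Rac2 overlap between the groups, as does Ncf4 through KO1 alone, Cybb lies lower in each CD44 KO library, and the CD44 KO points of Nox4 run from -8.70 to -3.32.

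Stromal markers were set beside Nox4, since it is a gene of non-phagocytic cells. The 9 fibroblast and adipocyte progenitor markers summed to 3032 to 3926 CPM in wild type and 905 to 2090 CPM in CD44 KO. Of the 9, 1 was called lower, where 0.882% of all genes were, and the median log2 fold change was -1.13. There were 7 negative and 2 positive log2 fold changes, where 47.8% of all genes were negative. At an unadjusted edgeR p under 0.05, 6 were lower, where 14.7% of all genes were. For 6 the groups did not overlap, lower in CD44 KO, as for 18.1% of all genes. The summed level of these 9 markers was lowest in KO2, whereas Nox4 was lowest in KO1. The 8 endothelial markers summed to 691 to 1407 CPM and 861 to 1655 CPM, and the 7 smooth muscle markers to 156 to 461 CPM and 305 to 463 CPM, with 0 called in either list. For the 10 mature adipocyte markers the sums were 10771 to 28879 CPM (wild type) and 30902 to 49193 CPM (CD44 KO). Of the 10, 9 had positive log2 fold changes, as had 7219 of the 13829 genes tested. Of these adipocyte markers 1 was called higher, Cfd (mean 365 CPM against 9896), where 1.74% of all genes were. Lep went the other way, and its groups did not overlap (mean 2927 CPM against 870, log2 fold change -1.75, adjusted p 0.0682). The 6 mesothelial markers, of cells that line the fat pad, summed to 3.65 to 11.2 CPM in wild type and 35.7 to 57.8 CPM in CD44 KO. All 6 had groups that did not overlap, as had 19.7% of all genes in this direction. Of the 6, 1 was called higher, where 1.74% of all genes were. Their wild type counts were low, with 65, 80 and 3 in WT1 to WT3 for Upk3b, the most abundant. The part of these cells in the decrease of Nox4 was not tested.

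The members' likeness over the 6 libraries split in the same way. Pearson r of log2 CPM was 0.985 to 0.998 for the 10 pairs of phagocyte subunits and 0.532 to 0.597 for the 5 pairs with Nox4. The points share 2 genotypes and the same libraries, and r is given as a description. An r this high was common. For the 10 pairs, 10 to 311 genes, the reference subunit included, had a higher r to that subunit than its partner had. For the 5 pairs with Nox4 the range was 3897 to 4094 genes. The search covered 12882 genes of at least 1 CPM on average. The 5 genes most like Cybb were Ctsb (cathepsin B), Cerk (ceramide kinase), Dock2 (an activator of Rac proteins in leukocytes), Aph1c (a gamma-secretase subunit) and the kinase gene Syk, with r of 0.999 to 1.00 and log2 fold changes of -2.39 to -1.58, none called. Those most like Nox4 were Ltbp2 (r 0.986), a matrix protein gene that binds elastic fibres, then Fibin, Mppe1, Slc25a14 and Chmp3 (r 0.976 to 0.985). Ltbp2 fell from 31.7 ± 2.2 to 12.6 ± 2.9 CPM (log2 fold change -1.33, adjusted p 0.0381), and the other 4 stood between -0.91 and -0.20 and were not called.

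Beyond the 6 members, 44 genes of the wider oxidase pathway were listed by role, and 36 had enough counts to be tested. Of these 1 was called lower and 0 were called higher, where 0.882% and 1.74% of all genes were. 28 of the 36 had negative log2 fold changes, as had 47.8% of all genes, and the median was -0.73 against 0.03. At an unadjusted edgeR p under 0.05 there were 15 lower and 3 higher, where 14.7% and 16.3% of all genes were. DESeq2 called 13 lower and 2 higher, where it called 9.38% and 9.62% of all genes. Without KO1 edgeR called 15 lower, among them Sh3pxd2b, Prex1, Pik3cg, Irf8 and Spi1, where it called 9.65% of all genes.

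The 1 gene called lower was Duoxa1, the maturation factor that brings dual oxidase 1 to the cell surface. It had 352, 132 and 252 counts in WT1 to WT3 and 49, 36 and 21 in KO1 to KO3, a mean of 13.7 ± 6.8 against 2.14 ± 0.78 CPM. The groups did not overlap, and KO1 lay with the other CD44 KO libraries, as for Nox4. The log2 fold change was -2.67 (SE 0.49, adjusted p 0.0481), and this call was lost in 9 of 15 alternatives, among them 5 of the 6 that left out a library: adjusted p was 0.068 without WT1, 0.123 without WT2, 0.246 without WT3, 0.0913 without KO2 and 0.135 without KO3. Its exons overlap those of Duoxa2 on the other strand by up to 682 bases, but Duoxa2 was at 0 in all libraries. Duox1, the oxidase that it serves and its neighbour on chromosome 2, had 40, 26 and 20 counts against 4, 10 and 1 (log2 fold change -2.37, SE 0.79, adjusted p 0.112). The other 3 catalytic subunits, Nox1, Nox3 and Duox2, had at most 7.22 counts in any library and were not tested.

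Among organisers and maturation factors, Sh3pxd2b (Tks4, an organiser for other oxidases) stood at a log2 fold change of -1.86 (adjusted p 0.102). Cybc1, which encodes the chaperone that stabilises gp91phox and p22phox, stood at -0.69 (SE 0.19, adjusted p 0.0861), with 568, 881 and 832 counts against 506, 397 and 355. Its groups did not overlap, and it varied much less between libraries than the subunits it serves.

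All 9 small GTPase genes and regulators had negative log2 fold changes (median -0.73), as had 47.8% of all genes, and 0 were called. At an unadjusted edgeR p under 0.05, 4 were lower, where 14.7% of all genes were. Arhgdia (an inhibitor that holds Rac in the cytosol), Prex1 (a Rac activator of leukocytes) and Rap1a had the lowest p, with log2 fold changes of -0.60, -1.62 and -0.38 and adjusted p of 0.134, 0.136 and 0.143. Rac1, the widely expressed paralog of Rac2, was picked after its values were seen and had 6390 to 8503 counts in wild type and 5301 to 6614 in CD44 KO (log2 fold change -0.25, SE 0.18, adjusted p 0.351).

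Of the 9 kinases that act on the oxidase 0 were called, and the median log2 fold change was -1.61. At an unadjusted edgeR p under 0.05, 5 were lower and 1 higher, where 14.7% and 16.3% of all genes were. Prkcb, the protein kinase C beta that phosphorylates p47phox in leukocytes, had 126, 1265 and 423 counts against 92, 21 and 39 (log2 fold change -3.40, SE 0.94, adjusted p 0.088). WT2 held most of the Prkcb counts, and the groups did not overlap. Prkca, the alpha form, stood at 0.70 (adjusted p 0.0887), and Pik3cg, the leukocyte phosphoinositide 3-kinase gamma, at -2.16 (adjusted p 0.113).

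Of the genes for charge compensation and for handling superoxide 5 of 7 were tested and 0 were called. There was 1 lower and 1 higher at an unadjusted edgeR p under 0.05, where 14.7% and 16.3% of all genes were. Hvcn1, the proton channel that balances the charge moved by the oxidase, stood at -1.42 (adjusted p 0.135), the cytosolic superoxide dismutase gene Sod1 at 0.60 (adjusted p 0.152) and the extracellular one, Sod3, at -0.73 (adjusted p 0.213). Mpo and Epx, the peroxidases of neutrophils and eosinophils, had at most 1 count in any library. Among 6 transcription factors of phagocytes 5 were tested and 0 called. Spi1, which encodes PU.1, had 1483, 3854 and 3734 counts against 1408, 58 and 221 (log2 fold change -2.27, adjusted p 0.201), and Irf8 stood at -1.76 (adjusted p 0.125). Cebpa, which is also a factor of adipocytes, stood at 1.03 (adjusted p 0.092).

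**Figure D5:**
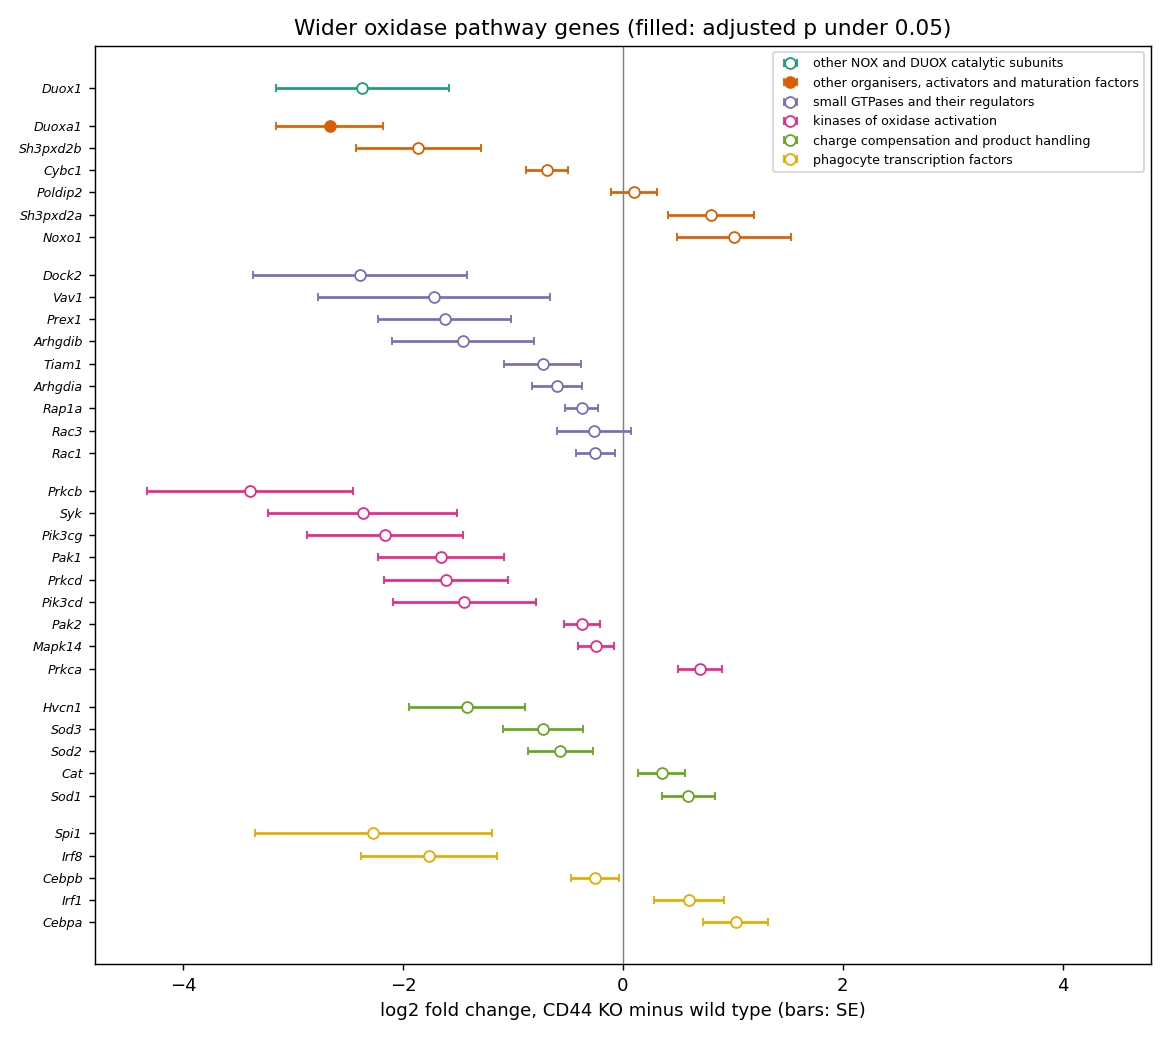
log2 fold changes (CD44 KO minus wild type) with SE of the tested genes of the wider oxidase pathway, all but 1 of the 36, grouped by role in colours, filled where the edgeR adjusted p is under 0.05. Duoxa1 (-2.67) is the only filled point, and most points lie below 0.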

How the data were processed

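RNA of 6 mouse eWAT libraries was analysed, 3 per genotype, grouped by the genotype in the labels. Per the labels' protocols, mRNA was enriched with oligo(dT) beads and made into NEBNext Ultra libraries. HISAT2, StringTie 1.3.1, RSEM and DESeq2 are named in the submitters' processing notes without their roles, and for build and strandedness the sources used here give nothing. The authors deposited expected counts (estimated, not scaled) and FPKM rounded to 2 decimals. A second deposited table repeats the counts after rounding and adds log2 fold changes, p-values and FDR.

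Expected counts were rounded and tested in edgeR 4.0.16 (R 4.3.3): filterByExpr by group, TMM, robust quasi-likelihood F-test, Benjamini-Hochberg adjustment over 13829 genes. SE is the log2 fold change over the root of F, and 95% intervals use 4 residual degrees of freedom, which makes them wider than the test, where degrees of freedom are pooled over genes. Log2 CPM use a prior count of 2. Alternatives were DESeq2 1.42.0, limma 3.58.1 (voom, or log2(FPKM + 0.1) or log2(FPKM + 1)), other scaling, no filter, no robust estimation, a replicate block, and each library left out. Equal replicate numbers were not taken as pairs.

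Named were the members, Cd44, called pathway genes or the 3 of lowest p per pathway list, the 5 genes most like Cybb and Nox4, and up to 3 abundant markers of a list. Rac1, Ly6g, Mertk, Lep and the untested pathway genes were picked after their values were seen. A pathway gene that enters the counts is not reported here by name. Members and lists were chosen with earlier results of these data known. Positions are GENCODE M21 (GRCm38), matched by identifier. Counts are reads without molecular identifiers, so depth covers counting error only.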

Additional observations from a re-analysis of the deposited data

How the results depend on the processing

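With all 6 libraries edgeR called 122 genes lower and 240 higher, 1 member lower and 0 higher, and 1 pathway gene lower and 0 higher. All 6 members kept a negative log2 fold change in the 15 alternatives, and 0 members were called higher in any. DESeq2 called 1439 genes lower and 1476 higher, 5 members lower, and 13 pathway genes lower and 2 higher. Its log2 fold changes were -2.66 for Cybb, -2.05 for Cyba, -2.15 for Ncf1 and -2.00 for Rac2, with adjusted p of 0.0174, 0.0451, 0.0467 and 0.0423. Without the filter on low counts 145 genes were called higher, 0 members and 0 pathway genes were called, and Nox4 stood at -3.02 (adjusted p 0.0565). limma-trend called 206 genes lower on log2(FPKM + 0.1) and 203 on log2(FPKM + 1), where Nox4 stood at -1.09, a scale that understates low genes. Upper quartile scaling and limma-voom called 0 pathway genes. With the replicate number as a block 0 genes were called lower, 0 higher, 0 members and 0 pathway genes, and Nox4 stood at -3.16 (adjusted p 0.176). Nothing in the labels says that equal numbers mark pairs, so the numbers were not taken as pairs. Deviations of same-numbered libraries from their group means correlated at -0.32, -0.22 and -0.02, and no library correlated best with its own number. With 3 libraries per group these values depend on each other and cannot settle whether libraries were paired.

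Leaving out each library in turn gave 0 to 1363 genes lower, 0 to 1007 higher, 0 to 6 members lower and 0 to 15 pathway genes lower. The log2 fold changes ran from -4.43 to -2.11 for Cybb, -3.55 to -1.54 for Cyba, -3.59 to -1.48 for Ncf1, -4.69 to -1.87 for Ncf4, -3.11 to -1.50 for Rac2 and -3.61 to -2.64 for Nox4. Over all alternatives the adjusted p of Nox4 ran from 4.78e-06 to 0.247. The shift of the median over all genes stayed under 0.1 in every alternative. With 5 to 20 counts per CD44 KO library, the depth limits the precision of the Nox4 fold.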
